A study of Mus musculus with 6 samples.

Results

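The 10 genes described here encode the collagens and nidogens of basement membranes. They are the 6 chains of type IV collagen (Col4a1 to Col4a6), the collagen and heparan or chondroitin sulfate proteoglycan hybrids of types XV and XVIII (Col15a1, Col18a1), and the linkers Nid1 and Nid2. They were taken by symbol from the 46983 genes of the expression table, and each symbol matched 1 row. RNA-seq had been carried out on aortic valves of wild type C57BL/6J mice at postnatal day 2 (PND2), when the leaflets still grow, and at 4 months, in the adult. There were 3 libraries at each age, each from the valves of 5 to 6 mice pooled, and the libraries are labelled as biological replicates. No group carried a transgene, a deletion or a treatment. Library totals ranged from 23810507 to 38994657 reads, and values are RPKM, the reads on a gene per kilobase of its exons, scaled to the reads of the library.

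A basement membrane is a thin sheet of matrix that underlies endothelium and epithelium and surrounds muscle, fat and Schwann cells. Laminins assemble at the cell surface, type IV collagen forms a covalently joined network, and nidogens and perlecan link the networks. Type IV collagen chains combine into only a few triple helices, of which the helix of α1 and α2 chains is found in nearly all basement membranes. The helix of α3, α4 and α5 is best known from the kidney glomerulus, and that of α5 and α6 from smooth muscle and the basement membrane under some epithelia. In the valve, endothelium covers both faces of the leaflet, and interstitial cells fill its layers. Libraries of whole valve hold RNA of all these cells, so fewer cells of a type and less RNA per cell cannot be told apart.

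All 10 genes had an RPKM of at least 0.1 in 3 libraries and entered the test, as did 25903 genes in all. All 10 differed between the ages at an adjusted p under 0.05, with 6 higher and 4 lower at 4 months, and in none did the libraries of the ages overlap. A gene-by-gene test with unequal variances called 6 of the 10 and 13.2% of all genes, with Col4a3 and Col15a1 (adjusted p = 0.052 each), Col4a5 (0.067) and Col4a4 (0.085) over the threshold. Of all genes tested, 35.8% differed at that threshold in limma, 14.7% with higher and 21.1% with lower values at 4 months, and in 50.0% the libraries of the ages did not overlap. Both a significant difference and a fold change over 2 were found for 8 of the 10 genes and for 17.2% of all genes. The study lists Col4a1, Col4a3, Col4a6, Col15a1, Col18a1, Nid1 and Nid2 as changed in these libraries. The members were thus not picked independently of these samples. Over all genes tested the log2 fold change had a median of -0.14, or of -0.02 when libraries were scaled by their median. The split of members into 6 higher and 4 lower was found with the deposited values, with median scaling and with quantile normalization.

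**Figure D1:**
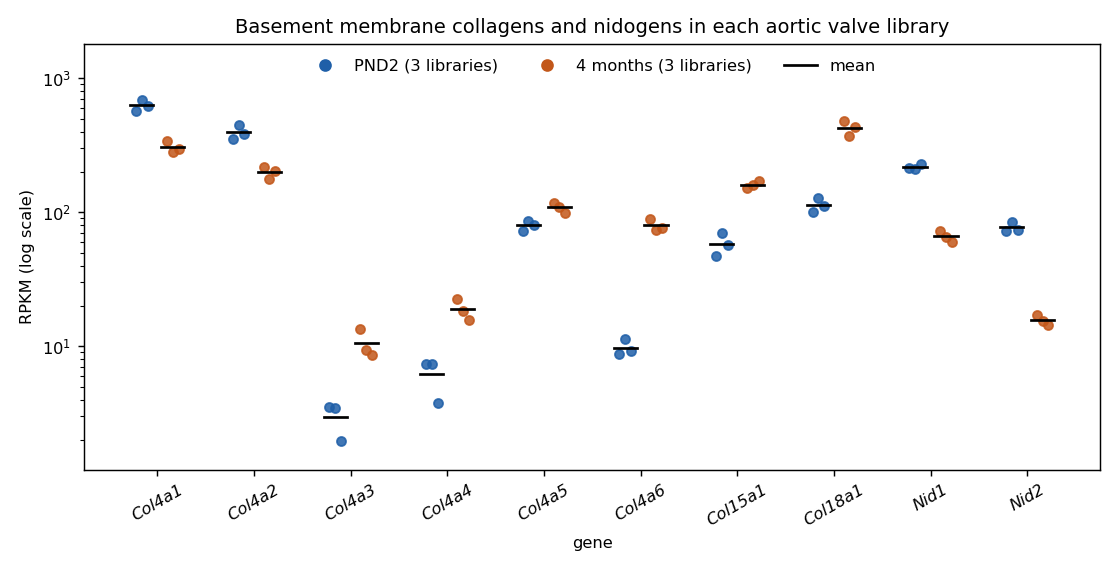
RPKM of the 10 genes (x axis) in each of 6 libraries on a log scale (y axis), with 3 points for PND2 and 3 for 4 months and a line at each mean. Col4a1, Col4a2, Nid1 and Nid2 lie lower at 4 months, the other 6 genes lie higher, and no gene has overlapping ages.

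The α1 and α2 chains, which form the most widespread type IV helix, fell together. Col4a1 (ENSMUSG00000031502) lies on chromosome 8 of mm10 at 11198423 to 11312826 on the minus strand. Its RPKM was 568, 689 and 622 in the PND2 libraries and 343, 282 and 297 in those of 4 months. The lowest PND2 library was thus well above the highest at 4 months, and the means differed by 2.04-fold (log2 fold change -1.03 ± 0.12 SE, adjusted p = 1.1e-03). Col4a2 (ENSMUSG00000031503) lies on the plus strand of chromosome 8 at 11312805 to 11449287. It had 353, 449 and 387 RPKM at PND2 and 218, 176 and 204 RPKM at 4 months. The fall was 1.99-fold between means (log2 fold change -0.99 ± 0.13, adjusted p = 1.5e-03). PND2 replicate 2 was the highest library of both genes.

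Col4a1 and Col4a2 start head to head, and their annotated first exons overlap by 22 bases. The windows from 250 bases before to 50 bases after each start are shown because the genes share this stretch and moved together. They are taken from RefSeq on GRCm38.p6, the assembly of mm10, and their capitals mark GGGCGG and CCAAT read on either strand (CCGCCC and ATTGG on the other). The Col4a1 window is chr8:11312777-11313076 on the minus strand, the Col4a2 window is chr8:11312555-11312854 on the plus strand, and 78 bases belong to both.
Col4a1: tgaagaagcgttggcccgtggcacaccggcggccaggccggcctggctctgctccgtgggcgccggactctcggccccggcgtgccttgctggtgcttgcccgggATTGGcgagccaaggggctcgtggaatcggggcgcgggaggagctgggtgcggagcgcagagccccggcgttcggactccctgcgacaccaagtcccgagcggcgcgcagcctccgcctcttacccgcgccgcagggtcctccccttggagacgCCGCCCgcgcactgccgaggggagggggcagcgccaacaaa
Col4a2: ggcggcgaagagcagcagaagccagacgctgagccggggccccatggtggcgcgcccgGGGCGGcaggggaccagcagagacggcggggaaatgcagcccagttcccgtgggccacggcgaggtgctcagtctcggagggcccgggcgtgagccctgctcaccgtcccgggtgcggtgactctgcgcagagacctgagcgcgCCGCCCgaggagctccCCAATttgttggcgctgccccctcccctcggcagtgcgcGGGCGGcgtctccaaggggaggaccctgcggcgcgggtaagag
The Col4a1 window held 1 GGGCGG and 1 CCAAT, and the Col4a2 window held 3 and 1. The GGGCGG of the Col4a1 window lies in the shared bases and is the same site as the last of the 3 in the Col4a2 window. Of 32851 promoter windows of 300 bases, 35.7% held GGGCGG and 37.4% held CCAAT at least once on either strand. G and C made up 74.0% of the Col4a1 window and 73.7% of the Col4a2 window.

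The α3 and α4 chains were the least abundant of the 10 genes at PND2, and both rose. Col4a3 (ENSMUSG00000079465; chromosome 1, 82586921 to 82722059, plus strand) had 3.51, 3.47 and 1.95 RPKM at PND2 against 13.4, 9.38 and 8.67 at 4 months. Between means the rise was 3.53-fold (log2 fold change 1.80 ± 0.28, adjusted p = 2.8e-03). Its values rested on 569 to 1364 reads per library at PND2 and on 2225 to 5007 at 4 months. Col4a4 (ENSMUSG00000067158; chromosome 1, 82448423 to 82586849, minus strand) had 7.38, 7.34 and 3.77 RPKM at PND2 and 22.3, 18.4 and 15.7 at 4 months. This was a 3.05-fold rise (log2 fold change 1.64 ± 0.28, adjusted p = 3.9e-03). PND2 replicate 3 was lowest and 4 months replicate 1 highest for both genes. These 2 genes also varied most among libraries of 1 age, with a coefficient of variation at PND2 of 29.8% for Col4a3 and 33.6% for Col4a4, against 4.44% for Nid1. Col4a4 and Col4a3 start 72 bases apart on opposite strands. The Col4a4 window in RefSeq held neither GGGCGG nor CCAAT.

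The X-linked chains α5 and α6 both rose, the former by 1.36-fold and the latter by 8.19-fold. Col4a5 (ENSMUSG00000031274; chromosome X, 141475385 to 141689234, plus strand) had 72.0, 86.6 and 80.5 RPKM at PND2 and 117, 109 and 99.4 at 4 months. Its rise of 1.36-fold was the smallest of the members (log2 fold change 0.44 ± 0.11, adjusted p = 0.016). It missed the threshold without 4 months replicate 1 (adjusted p = 0.051) and without PND2 replicate 3 (adjusted p = 0.053). Col4a6 (ENSMUSG00000031273; chromosome X, 141165403 to 141474076, minus strand) had the largest change among the members. It had 8.74, 11.3 and 9.21 RPKM at PND2 and 89.7, 74.3 and 75.7 at 4 months, an 8.19-fold rise between means (log2 fold change 3.02 ± 0.13, adjusted p = 2.6e-05). The highest PND2 library, at 11.3, lay far below the lowest of 4 months, at 74.3.

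The starts of Col4a6 and Col4a5 lie 1309 bases apart on opposite strands. Their windows are shown because the fold changes of these neighbours were so unlike, and the capitals mark the same motifs. The Col4a6 window is chrX:141474027-141474326 on the minus strand and that of Col4a5 is chrX:141475169-141475468 on the plus strand, both RefSeq on GRCm38.p6.
Col4a6: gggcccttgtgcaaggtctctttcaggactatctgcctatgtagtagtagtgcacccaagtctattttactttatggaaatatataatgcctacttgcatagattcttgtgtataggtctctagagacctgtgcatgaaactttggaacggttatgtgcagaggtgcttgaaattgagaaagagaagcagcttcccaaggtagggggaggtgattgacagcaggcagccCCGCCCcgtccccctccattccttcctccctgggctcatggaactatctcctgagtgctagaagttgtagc
Col4a5: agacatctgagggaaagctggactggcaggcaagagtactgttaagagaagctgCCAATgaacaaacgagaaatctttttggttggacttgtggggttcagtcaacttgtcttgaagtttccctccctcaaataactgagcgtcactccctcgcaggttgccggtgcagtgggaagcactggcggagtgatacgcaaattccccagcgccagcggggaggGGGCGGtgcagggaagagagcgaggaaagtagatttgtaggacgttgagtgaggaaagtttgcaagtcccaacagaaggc
Each window held 1 GGGCGG, and that of Col4a5 also held 1 CCAAT. The share of G and C was 48.3% for Col4a6 and 52.7% for Col4a5. Because these genes are X-linked, the sex of the pools was looked at through Xist, the RNA of the inactive X chromosome, which was chosen after its values were seen. Xist had 109, 0.046 and 0.101 RPKM in the PND2 libraries and 0.154, 110 and 40.8 RPKM in those of 4 months. Both ages thus held libraries with high and with very low Xist, and Col4a6 separated the ages in every library. Ddx3y, a gene of the Y chromosome, had 6.32, 28.5 and 32.3 RPKM at PND2 and 37.2, 0 and 21.1 RPKM at 4 months. PND2 replicate 1 and 4 months replicate 3 thus held both RNAs. The part of sex in the values of Col4a5 and Col4a6 was not tested.

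Collagen XV and XVIII, which carry glycosaminoglycan chains and release fragments such as endostatin from their C termini, both rose. Col15a1 (ENSMUSG00000028339; chromosome 4, 47208161 to 47313167, plus strand) had 47.2, 69.7 and 57.1 RPKM at PND2 and 150, 160 and 170 at 4 months. The rise was 2.76-fold (log2 fold change 1.48 ± 0.15, adjusted p = 4.5e-04). Col18a1 (ENSMUSG00000001435; chromosome 10, 77052178 to 77166548, minus strand) had 101, 127 and 111 RPKM at PND2 and 476, 370 and 435 at 4 months. This was a 3.78-fold rise (log2 fold change 1.92 ± 0.13, adjusted p = 1.2e-04). Every library of 4 months was more than 2 times any PND2 library for both genes.

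The nidogens, which bind the laminin γ1 chain and type IV collagen, both fell. Nid1 (ENSMUSG00000005397; chromosome 13, 13437602 to 13512275, plus strand) had 215, 209 and 228 RPKM at PND2 and 72.7, 65.7 and 59.6 at 4 months. Its mean was 3.29-fold lower at 4 months (log2 fold change -1.72 ± 0.10, adjusted p = 6.1e-05). Nid2 (ENSMUSG00000021806; chromosome 14, plus strand) had 72.7, 84.5 and 73.6 RPKM at PND2 and 17.0, 15.3 and 14.4 at 4 months. Its mean was 4.95-fold lower (log2 fold change -2.30 ± 0.11, adjusted p = 3.1e-05), the largest fall among the 10 genes.

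The order of the members by RPKM changed between the ages. At PND2 the order from the top was Col4a1, Col4a2, Nid1, Col18a1, Col4a5, Nid2, Col15a1, Col4a6, Col4a4 and Col4a3, and only the neighbours Col4a5 and Nid2 had overlapping libraries. At 4 months it was Col18a1, Col4a1, Col4a2, Col15a1, Col4a5, Col4a6, Nid1, Col4a4, Nid2 and Col4a3, and only Col4a4 and Nid2 overlapped. Col18a1 thus moved from the fourth place, at 113 ± 13.4 RPKM (SD, n = 3), to the top, at 427 ± 53.2. Nid1 moved from the third place to the seventh. RPKM divides by exonic length, but some short exons had far higher RPKM than long ones of their gene. At 4 months an exon of Col18a1 of 27 bases had a mean of 1105 RPKM, and one of 545 bases had 378. Exons of Col15a1 of 36 and 548 bases had 453 and 108. Reads summed over genes came to 2.31 to 2.36 times the library totals. Gene reads equalled the sum of exon reads in 7510 of 7510 genes without overlapping exons. How reads that span exons were counted is not given in the sources used here. How far the order, and the ratios and shares across genes, rest on the number and length of exons was not tested.

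Ratios between chains were computed within each library, which removes the library total. Their exact 2-sided permutation test over 3 against 3 libraries cannot give a p under 0.1, so none can pass 0.05. For 10 ratios the smallest Benjamini-Hochberg adjusted p was 0.125. The ratio of Col4a1 to Col4a2 was 1.61, 1.53 and 1.61 at PND2 and 1.58, 1.60 and 1.46 at 4 months. These libraries overlapped, and the difference in log2 ratio was -0.04 ± 0.05 (SE, exact permutation p = 0.5). Col4a3 to Col4a4 also overlapped, with 0.476, 0.473 and 0.517 at PND2 and 0.602, 0.511 and 0.550 at 4 months. Its difference in log2 ratio was 0.18 ± 0.08 (exact permutation p = 0.2).

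The other ratios separated the ages in every library, each at the smallest exact permutation p of 0.1. Col4a5 to Col4a6 was 8.24, 7.65 and 8.74 at PND2 and 1.31, 1.47 and 1.31 at 4 months, 6.03-fold lower at 4 months on the log scale. At PND2 the α5 RNA thus far exceeded the α6 RNA, and at 4 months they came close to each other. Col4a4 to Col4a5 was 0.102, 0.085 and 0.047 at PND2 and 0.191, 0.169 and 0.158 at 4 months, 2.32-fold higher. Col4a3 to Col4a5 was 0.038 ± 0.012 at PND2 (SD, n = 3) and 0.096 ± 0.016 at 4 months. Both α3 and α4 stayed far below α5 in every library. Col4a1 to Col4a5 was 7.88, 7.95 and 7.72 at PND2 and 2.93, 2.59 and 2.99 at 4 months. Nid1 to Nid2 was 2.96, 2.47 and 3.09 at PND2 and 4.27, 4.30 and 4.15 at 4 months, higher in every library of 4 months. Col15a1 to Col18a1 was 0.468, 0.547 and 0.516 at PND2 and 0.316, 0.432 and 0.391 at 4 months.

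**Figure D2:**
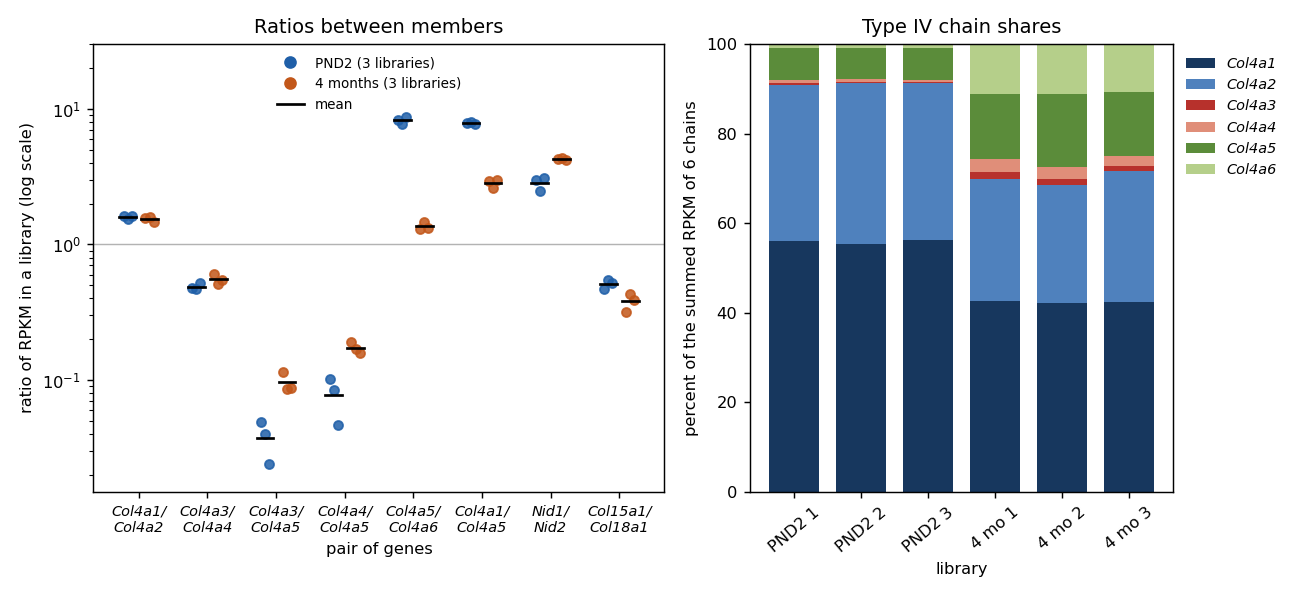
Left, ratios of RPKM between members (x axis) in each library on a log scale (y axis), with a line at each mean. Right, the share of each chain in the summed RPKM of the 6 type IV chains (y axis, percent) in each library (x axis), where Col4a1 and Col4a2 hold 90.9 to 91.4% at PND2 and 68.5 to 71.5% at 4 months.

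The summed RPKM of the 6 type IV chains was 1121 ± 118 at PND2 and 724 ± 70.1 at 4 months (SD, n = 3), 1.55-fold lower. Col4a1 and Col4a2 made up 91.2 ± 0.216% of the sum at PND2 and 69.9 ± 1.54% at 4 months. Col4a5 accounted for 7.12 ± 0.173% and then 15.01 ± 1.11%, and Col4a6 for 0.869 ± 0.037% and then 11.02 ± 0.199%. Col4a3 went from 0.267 ± 0.085% to 1.44 ± 0.222% and Col4a4 from 0.553 ± 0.196% to 2.59 ± 0.299%. These are shares of RNA and not of helices, since the chains of a helix are assembled after translation.

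Whether the changes ran along the whole gene was asked exon by exon. Of 466 distinct exons of the 10 genes, 457 had an RPKM of at least 1 in 3 libraries and were tested against the other exons of their gene. With equal weights 7 of the 457 were called, and 4 of these were also called with voom weights, which allow for the lower precision of low counts. Of all 243348 exons tested, 1.31% were called with equal weights and 0.562% with voom weights. No exon of Col4a1, Col4a2, Col4a3, Col4a4, Col4a5, Nid1 or Nid2 was called. All 54 exons tested of Col4a1 were lower at 4 months, with log2 fold changes from -1.20 to -0.84. All 20 of Nid1 lay between -1.90 and -1.65 and all 21 of Nid2 between -2.62 and -1.97. The log2 fold changes of the 56 exons of Col4a3, a gene of low level, spread from 0.03 to 4.75.

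**Figure D3:**
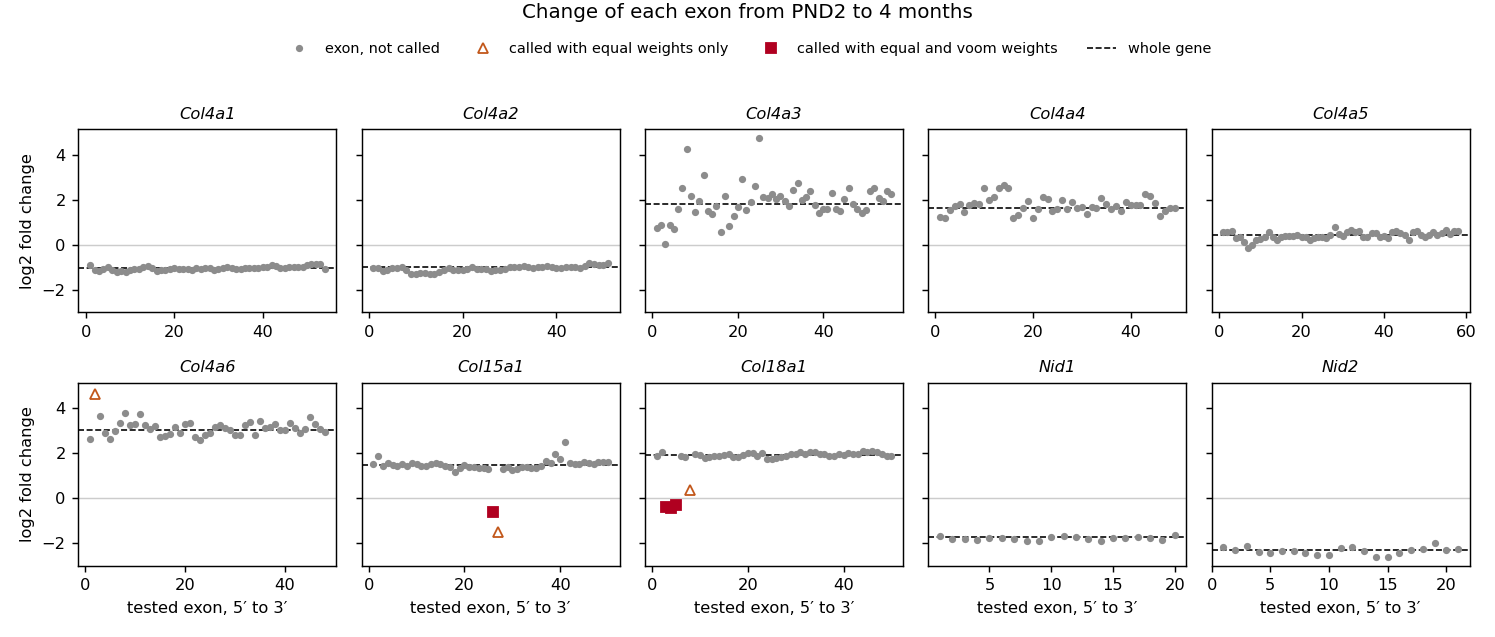
Log2 fold change from PND2 to 4 months (y axis) of each tested exon in 5′ to 3′ order (x axis) for the 10 genes, with the value of the whole gene as a dashed line. The squares of Col18a1, exons of its long start, lie below 0, the triangle is an internal first exon at 0.36, and the gene as a whole has 1.92.

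Col18a1 has an upstream start that gives the short form of the protein and a downstream start that gives the longer forms, which are best known from liver. The first exon of the short start (chr10:77166439-77166548, transcript Col18a1-202) had 38.9, 52.7 and 42.6 RPKM at PND2 and 184, 134 and 183 at 4 months. It rose like the gene as a whole, with a log2 fold change of 1.90. The first exon of the long start (chr10:77112218-77113946, transcript Col18a1-201) had 3.38, 5.10 and 4.76 RPKM at PND2 and 4.26, 2.55 and 3.92 at 4 months. Those libraries overlapped, and the exon fell short of the rest of its gene by a log2 difference of -2.12, a call made with both weights. The exon test pools the spread over the exons of a gene, which share libraries and, where they overlap, reads, so its p-values are too small and its calls are given as a description. It held 105 to 275 reads per library. The 2 other exons called with both weights at this start overlap it and share its reads. The first exons of the long and short starts are 1729 and 110 bases long, and RPKM varied with exon length within this gene. Their ratio is thus given for its change between the ages and not as the relative use of the starts. The ratio of the long to the short first exon was 0.098 ± 0.013 (SD, n = 3) at PND2 and 0.021 ± 0.002 at 4 months. It was 0.087, 0.097 and 0.112 in the PND2 libraries and 0.023, 0.019 and 0.021 in those of 4 months (exact permutation p = 0.1), and this ratio was added after the exon values were seen.

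The windows of the 2 starts are shown because only the short start followed the gene. Both are RefSeq on the minus strand of GRCm38.p6, chr10:77166481-77166780 for the short start and chr10:77113656-77113955 for the start of Col18a1-203, which lies within the first exon of Col18a1-201.
Col18a1 short start: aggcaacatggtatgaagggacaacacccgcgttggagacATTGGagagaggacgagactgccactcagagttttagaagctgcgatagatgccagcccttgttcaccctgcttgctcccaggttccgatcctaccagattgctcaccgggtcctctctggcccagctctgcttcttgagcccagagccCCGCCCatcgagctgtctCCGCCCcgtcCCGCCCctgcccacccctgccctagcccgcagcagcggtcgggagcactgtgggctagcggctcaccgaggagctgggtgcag
Col18a1 long start: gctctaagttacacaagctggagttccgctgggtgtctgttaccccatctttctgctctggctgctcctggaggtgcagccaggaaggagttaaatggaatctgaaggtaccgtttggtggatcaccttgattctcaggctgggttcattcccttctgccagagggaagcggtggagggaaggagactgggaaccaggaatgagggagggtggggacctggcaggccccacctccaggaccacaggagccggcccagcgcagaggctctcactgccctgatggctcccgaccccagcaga
The short start held 3 GGGCGG and 1 CCAAT, with 63.3% G and C. The long start held neither motif, with 59.7% G and C.

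The remaining exon calls rested on few reads. An internal first exon of Col15a1 (chr4:47288069-47288869, transcript Col15a1-204) was called with both weights. It had 1.02, 3.27 and 2.01 RPKM at PND2 and 1.84, 1.10 and 0.906 at 4 months, while the gene as a whole rose. It held 21 to 80 reads per library. Called with equal weights only were an exon inside it (chr4:47288287-47288503), an internal first exon of Col18a1 (chr10:77089200-77089428) and the second exon of Col4a6 (chrX:141473562-141473613). The latter had 2.96, 2.52 and 1.97 RPKM at PND2 and 75.2, 62.2 and 55.8 at 4 months, from 3 to 6 reads per library at PND2. The first exon of Col4a6 (chrX:141473809-141474076) went from 3.65 ± 1.26 to 22.5 ± 4.55 RPKM and was not called against its gene.

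Several members share their place with genes on the opposite strand, and the kit keeps strand but the counting setting is not given in the sources used here. Gm15419 lies opposite Col4a2 and had means of 32.4 RPKM at PND2 and 15.5 at 4 months. The end of Nid2 overlaps 2700060E02Rik over 386 bases, which had means of 79.0 and 50.6 RPKM. Slc19a1 opposite Col18a1 and C430014B12Rik opposite Col4a3 had means under 4 RPKM at both ages. The pseudogene Gm15079 opposite Col4a6 had means of 8.18 RPKM at PND2 and 15.1 at 4 months, and Gm12426 opposite Col15a1 had 1.75 and 7.58. Reads in the overlaps may belong to either gene. The part of the opposite genes in the values of the members was not tested.

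The other genes of the basement membrane were counted in 5 lists of 58 genes, all of which were tested. Of these, 17 rose and 25 fell, and 16 were not called, which is 72.4% called beside 35.8% of all genes. The gene-by-gene test with unequal variances called 27 of the 58, beside 13.2% of all genes. The study names several of these genes, which were therefore not picked independently of these samples. Their median log2 fold change was -0.29, against -0.14 for all genes and 0.96 for the 10 members.

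Among the laminin chains, the heterotrimers that start a basement membrane, 2 of 10 rose and 6 fell. The γ1 chain Lamc1, to which nidogens bind, fell from 174 ± 11.8 to 81.5 ± 5.02 RPKM (SD, n = 3; log2 fold change -1.10 ± 0.09, adjusted p = 2.7e-04). Lamb1 fell from 97.0 ± 11.02 to 17.9 ± 2.77 RPKM. Lamb2 rose from 138 ± 23.9 to 338 ± 38.3 RPKM and Lamc3 from 2.11 ± 0.445 to 49.1 ± 7.45. The β1 chain was thus lower and the β2 chain higher in every library of 4 months than in any of PND2. Lama3 (log2 fold change -1.22) and Lama1 (-2.84) fell as well, and Lama1 had no more than 4 reads in any library of 4 months. Lama5, with 58.0 ± 11.9 and 58.1 ± 6.34 RPKM, was not called.

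Of 14 proteoglycans and linkers, 8 rose and 6 fell. Npnt, a ligand of integrin α8β1, rose from 20.9 ± 4.19 to 282 ± 26.5 RPKM (log2 fold change 3.77 ± 0.16, adjusted p = 2.4e-05). Smoc2 and Smoc1, matricellular proteins of basement membranes, rose by 2.01 and 1.95 on the log2 scale, and Fbln1, Ntn1 and Vwa1 by 1.77, 1.67 and 1.52. Fbln2, which binds nidogen, fell by 2.11 (adjusted p = 1.0e-04), and Agrn, encoding agrin, fell by 1.25. Hspg2, encoding perlecan, had 281 ± 55.9 RPKM at PND2 and 190 ± 19.97 at 4 months (log2 fold change -0.55, adjusted p = 0.036). It missed the threshold with median scaling (adjusted p = 0.061), quantile normalization (0.060), no trend (0.073), no filter (0.0501) and a replicate block (0.078). It also missed it when any library but PND2 replicate 1 was left out, with adjusted p-values of 0.053 to 0.099. With median or quantile scaling 4 genes of this list fell in place of 6, and without PND2 replicate 3 the calls in both directions came to 9 in place of 14.

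None of 16 genes of collagen processing and cross-linking rose, and 8 fell, while voom on the recovered reads called 1 rise. The gene-by-gene test with unequal variances called 4 of these 16 genes, 8 of the 14 proteoglycans and linkers and 3 of the 8 proteases and inhibitors. P4ha3, a subunit of prolyl 4-hydroxylase, fell by 4.43 on the log2 scale, from 50.8 ± 13.7 to 2.26 ± 0.651 RPKM (adjusted p = 5.1e-05). Pxdn, the peroxidase that forms the sulfilimine cross-link of type IV collagen, fell from 107 ± 10.5 to 28.7 ± 2.15 RPKM (log2 fold change -1.89 ± 0.11, adjusted p = 5.5e-05). Loxl2, which cross-links type IV collagen through lysines, fell by 1.70 and P3h1 by 1.25. Serpinh1, the collagen chaperone, had a log2 fold change of -0.41 and was not called (adjusted p = 0.11).

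Of 10 receptors, 3 rose and 3 fell. Itga7, a laminin receptor of muscle, rose by 1.71 and Bcam, a receptor of laminin α5, by 1.23 on the log2 scale. Ddr1, a collagen receptor, fell by 1.22 and Itga6 by 1.13. Itgb1, at 746 ± 25.9 and 711 ± 68.9 RPKM, was not called. Of 8 proteases and inhibitors, 4 rose and 2 fell. Mmp3 went from 1.22 ± 0.165 to 86.1 ± 19.99 RPKM (log2 fold change 6.01 ± 0.20, adjusted p = 1.2e-05), and the matrix-bound inhibitor Timp3 rose by 1.96. Mmp14, a membrane-anchored protease, fell by 2.05. Mmp2 fell by 0.70 (adjusted p = 0.022) and missed the threshold without either of PND2 replicates 2 and 3 and without either of 4 months replicates 1 and 2.

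**Figure D4:**
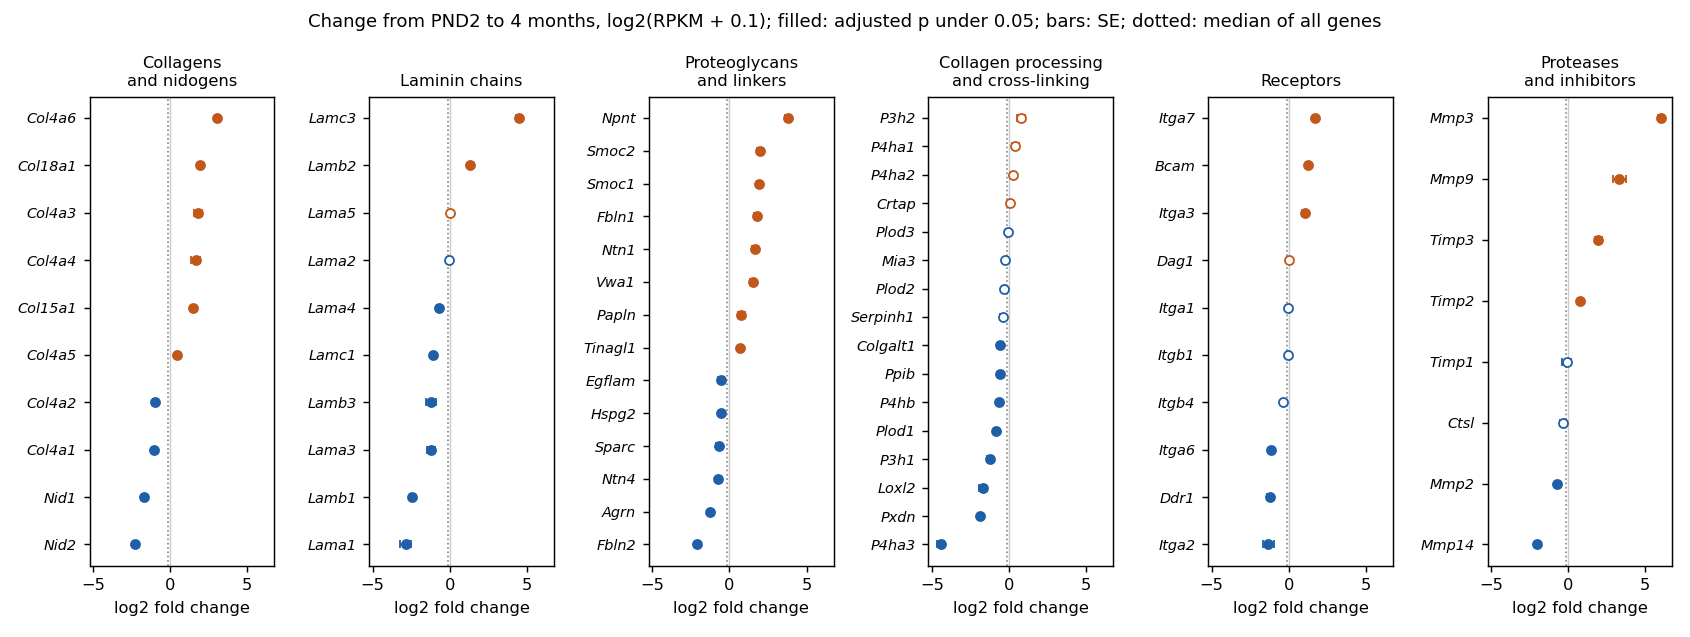
Log2 fold change from PND2 to 4 months with its standard error (x axis) for the 10 members and the genes of 5 lists (y axis), filled where the adjusted p is under 0.05, with the median of all genes dotted. The members hold 6 rises and 4 falls, the laminin chains 2 and 6, and collagen processing 8 falls.

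Markers of cell types that make or border basement membranes moved as well. Of 10 endothelial markers, 9 fell and none rose, and their summed RPKM was 861, 709 and 949 at PND2 and 433, 430 and 424 at 4 months. Eng was the most abundant, and Cdh5, which marks endothelial junctions, fell by 1.46 on the log2 scale. The summed endothelial level was 1.96-fold lower at 4 months, and the cardiomyocyte sum given below was 2.12-fold lower. Without Eng the endothelial sum was 635 ± 108 RPKM at PND2 and 298 ± 9.22 at 4 months (SD, n = 3). Single endothelial markers were lower by 1.23-fold (Esam, not called) to 3.16-fold (Cldn5). With median or quantile scaling 8 of the 10 fell.

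Smooth muscle markers rose in 7 of 8 cases, and their summed RPKM was 7441, 8542 and 8604 at PND2 and 27955, 16893 and 20205 at 4 months. Acta2 was the most abundant. Myh11, the smooth muscle myosin, had 112, 179 and 179 RPKM at PND2 and 2237, 1378 and 1571 at 4 months. Valve interstitial markers moved both ways, with 2 of 9 higher and 5 lower, or 3 and 4 with median scaling. By mean, Dcn was the most abundant of them at 4 months (3961 RPKM) and Col3a1 at PND2 (1412 RPKM, against 1054 for Dcn). The summed RPKM of the list was 6067, 6569 and 6418 at PND2 and 8792, 7679 and 9717 at 4 months. Dcn carried the higher sum, since the other 8 genes summed to 5297 ± 248 RPKM at PND2 and 4768 ± 530 at 4 months (SD, n = 3), and the median log2 fold change of the list was -0.77.

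Adipocyte markers rose in 7 of 8 cases and were uneven, with sums of 148, 64.4 and 78.8 RPKM at PND2 and 361, 1523 and 347 at 4 months. Without Cfd the sums of the ages overlapped, with 148 RPKM in PND2 replicate 1 and 143 in 4 months replicate 1. Cidec, Lep and Retn were at 0 in all PND2 libraries. Cfd was the most abundant of the list at 4 months, and Fabp4 made up most of its sum at PND2. Cardiomyocyte markers were present throughout, with 4 of 8 lower at 4 months, or 3 with median scaling and 5 with quantile normalization. Myh6 was the most abundant at 4 months, while at PND2 Myl2 (mean of 3562 RPKM) lay above Myh6 (3335). The sums of the list were 10905, 11416 and 13211 RPKM at PND2 and 4320, 7566 and 4897 at 4 months. The dissection was meant to leave little myocardium on the valves. Schwann cell markers were low, with Pmp2 at 0 in every library. Of these markers, 2 of 5 were higher at 4 months, or 3 with median scaling, quantile normalization or voom. By mean, Mal was the most abundant at 4 months (10.3 RPKM) and Mbp at PND2 (3.95 RPKM). The sums of the list were 8.68, 4.56 and 11.53 RPKM at PND2 and 24.3, 17.2 and 18.1 at 4 months, and without Mal the ages overlapped. The part of these cell types in the changes of the members was not tested.

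**Figure D5:**
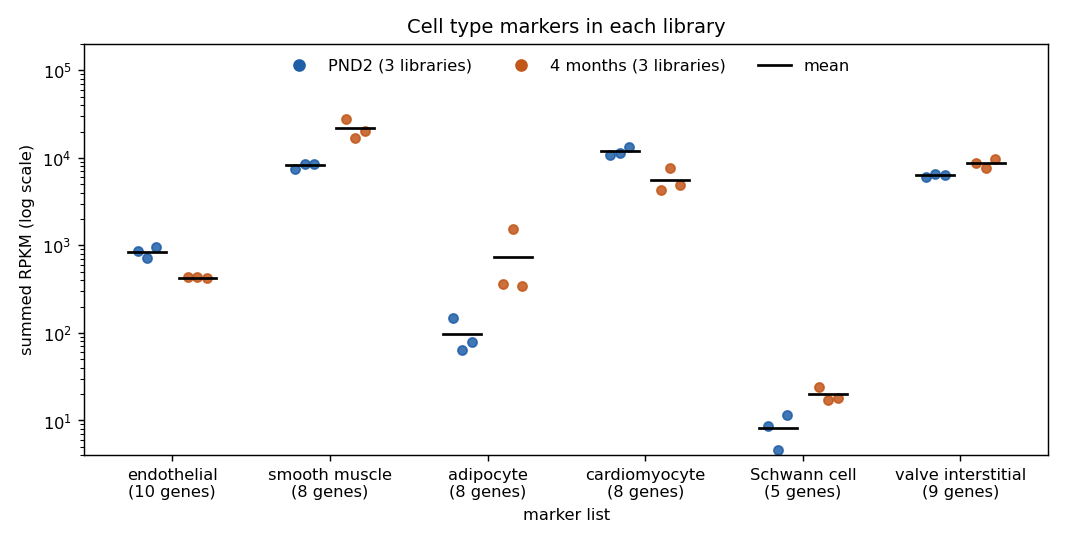
Summed RPKM of 6 marker lists (x axis) in each library on a log scale (y axis), with a line at each mean. Endothelial and cardiomyocyte sums lie lower at 4 months, and smooth muscle and adipocyte sums lie higher. Schwann cell sums also lie higher, as do valve interstitial sums through Dcn, with 4 months replicate 2 standing apart for adipocyte genes.

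Among 10612 other protein-coding genes with a mean of at least 5 RPKM, those most like Col4a1 over the 6 libraries were Nckap5l, Pdia5 and Magoh, with Pearson r of log2 values from 0.9987 to 0.9994. Pdia5, a protein disulfide isomerase, had 42.0 ± 5.86 RPKM at PND2 and 11.8 ± 2.01 at 4 months. Most like Nid2 were C1qtnf6, Ptprk and Prss35, with r from 0.9986 to 0.9990. C1qtnf6 had 88.6 ± 8.71 and 18.4 ± 0.600 RPKM. With 2 ages set apart in 6 libraries, such values mostly repeat the difference between the ages and are given as a description.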

How the data were processed

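Aortic valves of C57BL/6J mice were measured by RNA-seq in 6 libraries, 3 at PND2 and 3 at 4 months. Per the authors' methods, trimmed reads were aligned with TopHat2 2.1.0 (mm10), and easyRNASeq with Ensembl annotation gave the deposited RPKM values of genes and exons, to which their read minimum and floor had not yet been applied. Submitters' notes also name R 3.2.2.

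Genes were joined by Ensembl ID. Library totals and whole reads were recovered from the RPKM values and exonic lengths, and 100% of values came out whole within 0.01 of a read. Where exons of a gene did not overlap, its reads equalled the sum over its exons in 7510 of 7510 genes. Members were tested with all genes in limma 3.58.1 (R 4.3.3) on log2(RPKM + 0.1). Genes needed 0.1 RPKM or more in 3 libraries, and eBayes was run with a trend and Benjamini-Hochberg adjustment over all genes. Fold changes on this scale understate those of low genes. Exons were tested with limma's diffSplice from 1 RPKM upward in 3 libraries. A call needed an adjusted p under 0.05. The p-values of genes measure the spread between these pools, while those of exons pool it over the exons of a gene. Exon starts were named from GENCODE M21. RefSeq promoters matched 8 of the 10 members, with none for Col4a3 and Nid2.

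The members and lists were chosen with earlier results of these data known, and 2 genes of the lists are not reported here. All members are named, with the 2 largest rises and falls of each of the 5 lists (mean of at least 5 RPKM). Also named are some of the genes the study names, the leading marker of each marker list at each age and the 3 genes most like Col4a1 and Nid2. Lama5, Hspg2, Serpinh1, Itgb1 and a few markers are named outside this rule. Alternatives were a pseudocount of 1 or 0.01, testing every gene, a filter at 1 RPKM, no trend, median scaling, quantile normalization, a gene-by-gene test with unequal variances, voom on the recovered reads, a replicate block and each library left out. Ratios other than that of the Col18a1 first exons were repeated with a pseudocount and with the median over exons. Scripts were tested on simulated data. Other software was matplotlib 3.10.9, scipy 1.17.1, pandas 2.3.3 and numpy 2.4.6 under Python 3.11.15, with jsonlite 2.0.0 and version 1.17.8 of data.table in R.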

Additional observations from a re-analysis of the deposited data

How the results depend on the processing

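Over 16 alternatives no member changed direction, and 154 of 160 member values stayed on their side of the threshold. Of the rest, 4 came from a gene-by-gene test with unequal variances on the values and filter used here, which called 6 of 10 members, 27 of the 58 other basement membrane genes and 3408 genes in all. It left Col4a3 (log2 fold change 1.80, adjusted p = 0.052), Col4a4 (1.64, 0.085), Col4a5 (0.44, 0.067) and Col15a1 (1.48, 0.052) over the threshold. Leaving out 1 library moved the log2 fold change of Col4a5 between 0.37 and 0.51, and 9 or 10 members were called. The count of all genes called ran from 6447 to 9696 under the other alternatives. Median scaling moved the share of calls higher at 4 months from 41.1% to 52.7%.

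With the median RPKM over exons, the difference in log2 ratio was 0.025 for Col4a1 to Col4a2, 0.33 for Col4a3 to Col4a4 and -2.72 for Col4a5 to Col4a6, and the cause was not tested. Only Col4a1 to Col4a2, whose ages overlapped, changed sign. Voom, which changes both the values and their weights, called 4 member exons in place of 7, and the cause was not tested.

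Replicate numbers are shared by the ages, and the labels do not say that they pair the pools. Deviations from the age means correlated at 0.04, -0.06 and -0.16 for numbers 1, 2 and 3. Whether samples of the same number share a batch was not tested. With the number as a replicate block 10 of 10 members and 7167 genes were called, and 8 member exons.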
